A study of Mus musculus with 12 samples.

Results

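The lymphocyte ligands of the tumour necrosis factor (TNF) superfamily on the panel and the receptor Cd40 were compared between blood monocytes and Kupffer cells, the macrophages that reside in the liver. The genes were Cd40lg, Fasl, Lta, Ltb and Tnfsf14, which encode ligands, and Cd40, the receptor of the Cd40lg product. They were taken by symbol, 6 of the 248 genes tested, and all 6 were present. Each of 6 monocyte samples and 6 Kupffer cell samples was a pool of Balb/C mice, of 5 animals by the labels and of 4 to 5 by the methods of the study, and the labels give no age. Both cell types were enriched on magnetic beads against the surface protein F4/80, from the mononuclear fraction of blood or from collagenase-digested, perfused liver. This enrichment rests on 1 surface marker. The mRNA was measured by nanostring, which counts colour-coded probes bound to each transcript and needs no amplification. Pools are counted as replicates, and the p-values measure the spread between them.

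Ligands of the TNF superfamily are mostly membrane-bound trimers that signal to a neighbouring cell through receptors of the TNF receptor superfamily. Activated T and NK cells are their best known source in blood and liver. Macrophages and B cells carry Cd40 and answer Cd40lg with cytokine and co-stimulatory molecule production, and Fasl triggers apoptosis of cells that carry Fas. Lta forms a soluble homotrimer and, with Ltb, a membrane heterotrimer that binds the lymphotoxin beta receptor, which also binds the Tnfsf14 product, LIGHT.

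The promoters of the ligands are shown because Ltb and Lta lie on either side of Tnf on chromosome 17, and because Tnfsf14 and Fasl were among the genes whose groups did not overlap. Sequences are the 250 bases before the gene's start, read on the gene's strand from RefSeq (GRCm38.p6), and 4 of the 6 genes matched an entry by symbol. Capitals mark matches on either strand to the NFAT core GGAAA, to the AP-1 motif TGANTCA and to the kappaB consensus. A match describes the letters of the window and is not a binding site. Of 32841 promoters of this length, 55.6% held the NFAT core, 6.75% the AP-1 motif and 7.25% the kappaB consensus.
Tnfsf14, chr17:57194182-57194431, minus strand: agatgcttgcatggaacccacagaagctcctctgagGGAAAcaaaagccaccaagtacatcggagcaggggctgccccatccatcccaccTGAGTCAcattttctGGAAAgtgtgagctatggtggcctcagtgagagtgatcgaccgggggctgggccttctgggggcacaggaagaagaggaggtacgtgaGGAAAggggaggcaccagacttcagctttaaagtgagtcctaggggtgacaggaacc
Fasl, chr1:161788496-161788745, minus strand: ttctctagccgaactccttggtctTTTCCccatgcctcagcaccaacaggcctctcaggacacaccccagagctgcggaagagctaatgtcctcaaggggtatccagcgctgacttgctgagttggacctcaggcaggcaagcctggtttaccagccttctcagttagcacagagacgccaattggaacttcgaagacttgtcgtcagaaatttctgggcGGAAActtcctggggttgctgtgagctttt
Lta, chr17:35205352-35205601, minus strand: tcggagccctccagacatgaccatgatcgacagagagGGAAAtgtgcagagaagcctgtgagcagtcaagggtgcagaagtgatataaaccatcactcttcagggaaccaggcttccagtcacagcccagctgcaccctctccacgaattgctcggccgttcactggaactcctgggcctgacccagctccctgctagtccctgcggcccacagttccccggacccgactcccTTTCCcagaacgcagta
Ltb, chr17:35194257-35194506, plus strand: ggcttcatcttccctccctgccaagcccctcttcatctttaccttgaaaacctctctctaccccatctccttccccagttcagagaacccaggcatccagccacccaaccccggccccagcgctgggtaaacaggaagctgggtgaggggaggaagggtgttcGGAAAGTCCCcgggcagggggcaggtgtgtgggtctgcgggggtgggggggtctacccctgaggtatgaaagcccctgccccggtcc
The AP-1 motif was found in the Tnfsf14 window, 160 to 154 bases before the start, and in none of the other 3 windows. The kappaB consensus was found in the Ltb window, 87 to 78 bases before the start, where it overlaps an NFAT core. All 4 windows held the NFAT core, as did most promoters. Cd40lg lies on chromosome X and Cd40 on chromosome 2.

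The values are normalized counts of reporter molecules, so that a level of one gene is not set against that of another, whose probes differ. The lanes of the 2 cell types differed in depth: 162988 to 348248 molecules were counted in monocyte samples and 84401 to 145662 in Kupffer cell samples. Each lane had been multiplied by a factor, of 0.554 to 1.13 in monocytes, against 1.30 to 2.17 in Kupffer cells, and the part of this scaling in any single level was not tested. A ratio of 2 genes within a sample is free of it. All 6 genes were above the background of their lane in all 12 samples. Fewer cells of a type and less RNA per cell cannot be told apart in such pools.

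4 of the 6 genes rose in Kupffer cells and none fell (limma, adjusted p under 0.05). The fit called 56.5% of the 248 genes in either direction, 35.1% higher and 21.4% lower in Kupffer cells. The median log2 fold change, Kupffer cells over monocytes, was 0.74 over the 6 genes and 0.05 over all genes. In 3 of the 6, Cd40lg, Fasl and Tnfsf14, every Kupffer cell sample lay above every monocyte sample, as did 25.8% of all genes. Cd40 and Ltb were not called. With 6 genes, nothing particular to them is read from these shares.

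**Figure D1:**
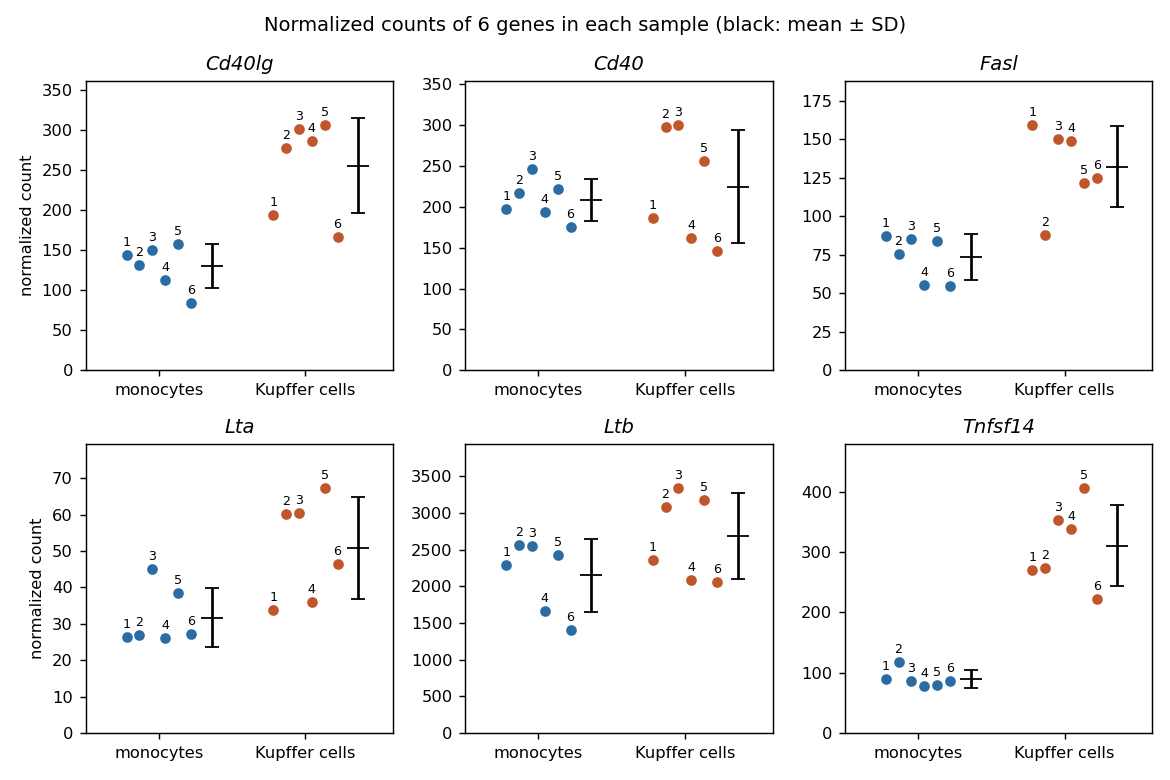
Normalized count of each gene in the 6 monocyte samples (blue) and 6 Kupffer cell samples (orange), numbered by sample, with the mean ± SD in black and each axis starting at 0. The groups are apart for Cd40lg, Fasl and Tnfsf14, and overlap for Cd40, Lta and Ltb.

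Tnfsf14, or LIGHT, is a ligand of the lymphotoxin beta receptor and of the herpesvirus entry mediator. It was at 77.8 to 118 normalized counts in monocytes (median 86.3) and at 222 to 406 in Kupffer cells (median 306). The lowest Kupffer cell sample was well above the highest monocyte sample. The means were 89.7 ± 14.7 and 311 ± 67.1 (SD, n = 6 samples each). Tnfsf14 thus rose 3.40-fold (95% interval 2.66 to 4.36), which is 1.77 on the log2 scale with a standard error of 0.17 (limma, adjusted p = 7.34e-07). It had the largest fold change of the 6 genes.

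Cd40lg, which activates cells carrying Cd40, was at 84.1 to 158 normalized counts in monocytes (median 138) and 167 to 306 in Kupffer cells (median 282). Kupffer cell samples 1 and 6 lay just above the monocytes, at 194 and 167, and the other 4 at 278 to 306. Cd40lg rose by 0.96 on the log2 scale (standard error 0.20, adjusted p = 0.00106 from limma), 1.95-fold (95% interval 1.44 to 2.64).

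Fasl, the death ligand of cytotoxic lymphocytes, was at 54.8 to 87.2 normalized counts in monocytes (median 79.8) and 87.7 to 159 in Kupffer cells (median 137). The groups did not overlap, but Kupffer cell sample 2, at 87.7, was nearly level with the highest monocyte sample. Fasl rose by 0.83 on the log2 scale (limma, standard error 0.18, adjusted p = 0.00153), 1.78-fold (95% interval 1.35 to 2.34). Under quantile normalization it was no longer called (0.30, adjusted p = 0.302).

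Lta, the secreted lymphotoxin subunit, was at 26.1 to 45.1 normalized counts in monocytes (median 27.1) and 33.9 to 67.4 in Kupffer cells (median 53.4). 4 of 6 Kupffer cell samples were above the highest monocyte sample. Lta was the gene nearest the background: 17 to 67 molecules were counted per sample, and the fewest, in Kupffer cell sample 4, have an exact 95% Poisson interval of 9.90 to 27.2 that covers counting error only. In monocyte sample 6 it stood at 27.1, just over the listed background of 27. That background is a control count without the lane factor, and with the factor it is 14.9. Lta rose by 0.65 (standard error 0.21, adjusted p = 0.0182 from limma), 1.57-fold (95% interval 1.15 to 2.14). The call was lost when samples were rescaled to equal medians (0.39, adjusted p = 0.122), and under quantile normalization the direction turned (-0.35, adjusted p = 0.0749).

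Ltb, the membrane anchor of the lymphotoxin heterotrimer, was at 1407 to 2561 normalized counts in monocytes (median 2357) and 2061 to 3342 in Kupffer cells (median 2720). 3 of 6 Kupffer cell samples were above the highest monocyte sample and the rest lay among the monocytes. The log2 difference was 0.33 with a 95% interval from -0.09 to 0.75 (adjusted p = 0.149 from limma), so that neither no difference nor a rise of 1.69-fold is outside it. Under quantile normalization Ltb was called (0.51, adjusted p = 0.0041), whereas rescaling to equal medians left a difference of 0.07 (adjusted p = 0.796).

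Cd40 was at 175 to 246 normalized counts in monocytes (median 207) and 146 to 300 in Kupffer cells (median 222). The Kupffer cell samples lay on both sides of the monocytes, 3 above the highest and 2 below the lowest. The coefficient of variation was 30.6% in Kupffer cells and 12.1% in monocytes. The log2 difference was 0.06, with a 95% interval of -0.37 to 0.48 (adjusted p = 0.791 from limma), which spans 0.776-fold to 1.40-fold. Its sign turned when samples were rescaled to equal medians (-0.20) and under quantile normalization (-0.35).

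**Figure D2:**
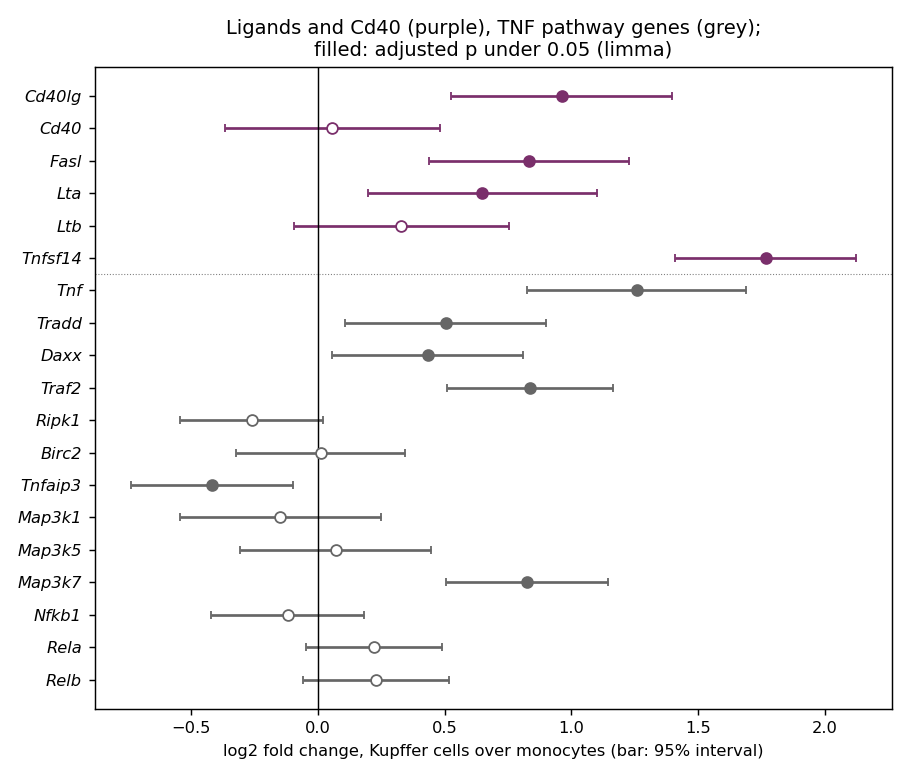
Log2 fold change of Kupffer cells over monocytes with its 95% interval, for the 6 genes (purple) and 13 genes of the TNF pathway (grey), filled where the adjusted p of limma was under 0.05. Tnfsf14 lies farthest to the right at 1.77, and Cd40 lies on 0.

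Ratios within a sample were compared for all 15 pairs of the 6 genes by an exact permutation test (two-sided, 924 assignments, smallest p 0.00216). 9 of 15 differed between the cell types after Benjamini-Hochberg adjustment over the 15. Tnfsf14 rose against each of the other 5. Its ratio to Cd40 was 0.352 to 0.546 in monocytes, against 0.921 to 2.09 in Kupffer cells, a log2 difference of 1.71 (exact p = 0.00216, adjusted p = 0.00541). Its ratio to Ltb was 0.0331 to 0.0621 in monocytes, against 0.0893 to 0.162 in Kupffer cells.

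The ligand Cd40lg rose against its receptor. Cd40lg over Cd40 was 0.484 to 0.730 in monocytes, against 0.933 to 1.77 in Kupffer cells, with no overlap (log2 difference 0.90, exact p = 0.00216, adjusted p = 0.00541). Cd40lg also rose against Ltb, by 0.63 (adjusted p = 0.00541, exact test). Lta and Fasl rose against Cd40 as well, by 0.59 and 0.77 (adjusted p = 0.00812 and 0.0433, exact test). For the lymphotoxin subunits, Lta over Ltb was 0.0109 to 0.020 in monocytes, against 0.0148 to 0.0230 in Kupffer cells, and the ranges overlapped. The difference of 0.32 did not pass (exact p = 0.0974, adjusted p = 0.122). Cd40lg over Fasl, Cd40lg over Lta, Fasl over Lta, Fasl over Ltb and Ltb over Cd40 did not pass either.

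**Figure D3:**
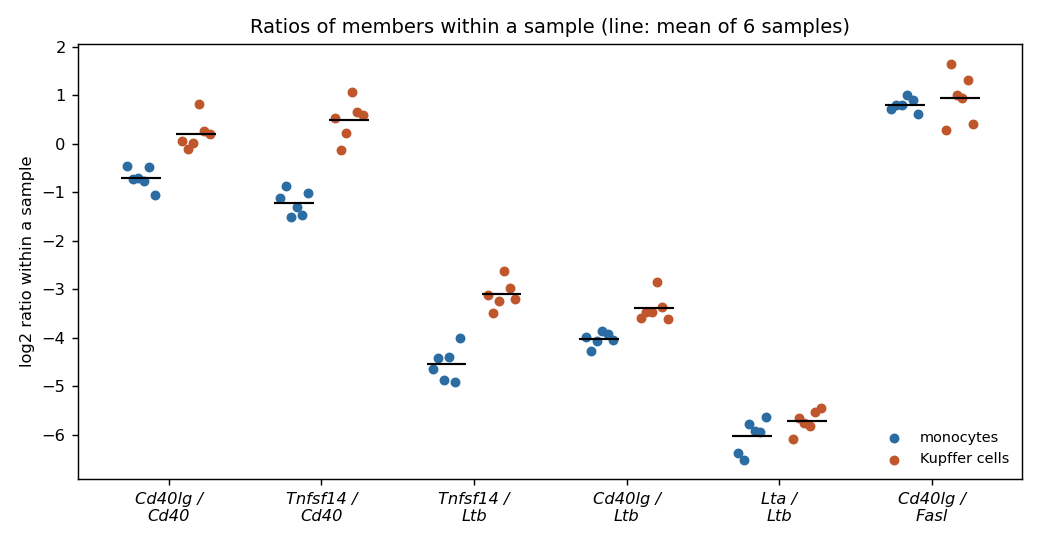
Log2 ratio of 2 genes within each sample for 6 of the 15 pairs, monocytes in blue and Kupffer cells in orange, with the mean of 6 samples as a line. The groups are apart for Cd40lg over Cd40, Tnfsf14 over Cd40 and both ratios to Ltb that have Tnfsf14 or Cd40lg on top, and overlap for Lta over Ltb and Cd40lg over Fasl.

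Within a cell type the samples did not move alike for all 6 genes. In Kupffer cells, samples 2, 3 and 5 were the highest 3 for Cd40, Lta and Ltb, whereas sample 2 was the lowest for Fasl. In monocytes, samples 4 and 6 were the lowest for Cd40lg, Cd40, Fasl and Ltb. Centred within cell types, over 12 samples that each share 1 lane factor, Cd40 and Ltb had a Pearson r of 0.83, Cd40lg and Ltb of 0.80, and Fasl and Cd40 of -0.09. These are descriptions.

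**Figure D4:**
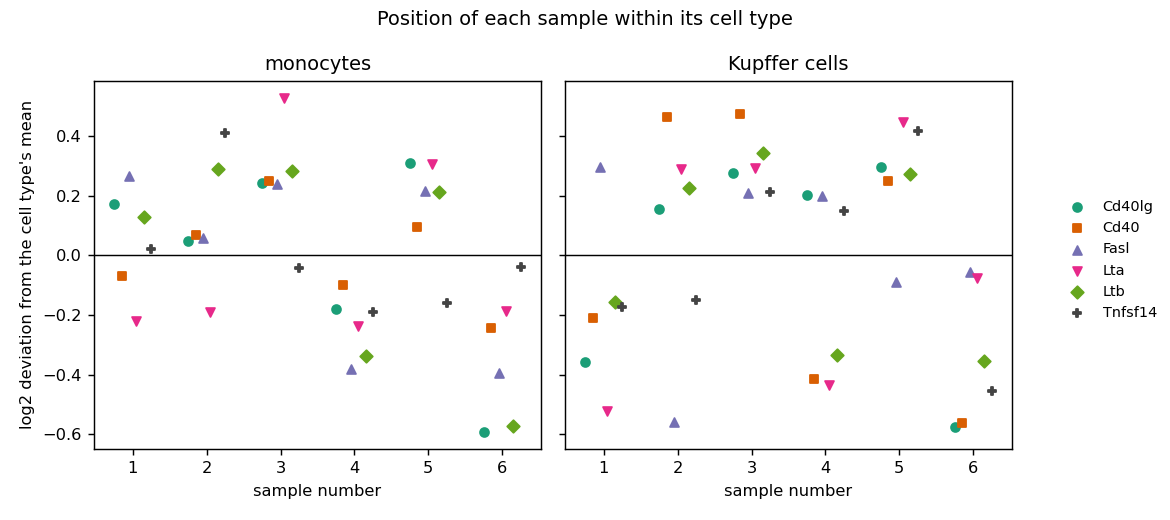
Log2 deviation of each sample from the mean of its cell type, for the 6 genes, by sample number (a name, not an order). Kupffer cell sample 2 is above the mean for Cd40, Cd40lg, Lta and Ltb, and at -0.56 for Fasl.

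Genes among the nearest to each in this measure, of 164 candidates, share that lane factor too. For Cd40lg they were Nfkb1 (r = 0.93), Hif1a and Cd4. For Cd40 they were Prkcb (0.95), Il12a and Tlr1, for Ltb Cfl1 (0.96), Nfatc3 and Map3k1, and for Lta Mef2d (0.90) and Hmgb1. The likeness was weaker for Fasl, with Cysltr2 (0.77) and Mx1, and for Tnfsf14, with Myd88 (0.77), Il18rap and Nod2.

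Of 32 genes of the TNF pathway on the list, 13 were on the panel, and 5 rose, 1 fell and 7 were not called, with a median log2 fold change of 0.22. Under both rescaling to equal medians and quantile normalization, 3 were called higher and 3 lower. Tnf, the founding ligand, whose gene lies between Lta and Ltb, was at 30.7 to 71.1 normalized counts in monocytes, against 80.3 to 153 in Kupffer cells. It rose by 1.26 (adjusted p = 0.000118 from limma). The adaptor Traf2 rose by 0.84 and the kinase Map3k7 (TAK1) by 0.83, both without overlap. Tradd, the adaptor of TNF receptor 1, rose by 0.50 and Daxx, which binds Fas, by 0.43. Tnfaip3 (A20), which restrains NF-kB, fell by 0.42. The calls of Tradd, Daxx and Tnfaip3 were lost in 9, 14 and 7 of 20 alternatives. Ripk1, Birc2, Map3k1, Map3k5, Nfkb1, Rela and Relb were not called. Rescaled to equal medians, Ripk1, a kinase of TNF receptor signalling, was called lower at -0.52 (adjusted p = 0.00204 from limma), as was the NF-kB subunit Nfkb1 at -0.38 (adjusted p = 0.027). The receptors Fas, Ltbr and Tnfrsf14 were not analysed here. C3, the complement component whose gene is next to Tnfsf14, rose from 395 ± 89.5 to 19074 ± 6827 normalized counts (SD, n = 6 each).

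For antigen presentation and co-stimulation, 10 of 15 listed genes were on the panel, and 4 fell and 0 rose in Kupffer cells. Rescaled to equal medians 10 were called lower, and without monocyte sample 2 there were 8. Il12b, Il15 and Il23a, called in both settings, were at the background in 5, 5 and 6 of 6 monocyte samples. In Kupffer cells they were at it in 6, 4 and 6 of 6. With the higher background, defined below for Il13, their signs turned (0.19, 0.18 and 0.19) and 4 genes were called lower. Cd86, a co-stimulatory ligand for T cells, fell by 1.12 (adjusted p = 0.000171 from limma) and Il12a by 0.98 (adjusted p = 0.00337). These are RNA values: by flow cytometry, a measure of protein, the study reported CD86 as more pronounced in Kupffer cells. H2-Eb1, a class II chain, fell by 0.50, a call lost in 7 of 20 alternatives. Ccl17, a chemokine, was called lower with all 6 Kupffer cell samples at the background, so its level there is only a bound. The median over the 10 was -0.64, between Ccl22 and Il23a, and so rests in part on a gene at the background in all 12 samples. Of 11 T helper and lymphocyte cytokines, 3 rose, Ifng, Il17a and Csf2, the latter pair at the background in 5 of 6 monocyte samples. The median over the 11 was 0.16, the value of Il4. That gene was at the background in 5 of 6 monocyte and 2 of 6 Kupffer cell samples, and its sign turned in 3 of 20 alternatives. Ifng, the cytokine of T helper and NK cells, was at 20.7 to 32.7 normalized counts in monocytes, against 263 to 374 in Kupffer cells, 11.5-fold higher (95% interval 9.31 to 14.3, adjusted p = 2.07e-10 from limma). In monocytes 1 of 6 samples was at the background, and the listed backgrounds there were 5 to 27 (median 21.5). The size of the Ifng fold thus rests on monocyte values mostly near the background. Il13 was called lower, with values at the background in 5 of 6 monocyte and 6 of 6 Kupffer cell samples, and its sign turned with the higher background, which lists such values at the higher of the control count and that count times the lane factor (0.096, adjusted p = 0.752 from limma). The number of these cytokines called lower was 4 after rescaling to equal medians, 5 without monocyte sample 2, and 0 with the higher background.

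Of 28 T and NK cell markers 7 were on the panel and 4 of these rose: Ifng, Ccl5 (1.69), Il18rap (1.19, a subunit of the interleukin 18 receptor) and Ccr4 (1.04). The median over the 7 was 1.04. Il23r, Il2 and Ccr4 were at the background in 4, 5 and 3 of 6 monocyte samples. The summed level of all 7 genes was 2838 to 5718 normalized counts in monocytes, against 8224 to 34480 in Kupffer cells. Without Ccl5 it was 527 to 866 and 1110 to 1715. Cd4, the co-receptor of T helper cells, did not pass (0.30, 95% interval -0.11 to 0.71, adjusted p = 0.166 from limma). Of 9 B cell markers, 0 were on the panel. No lineage-defining T or NK gene such as Cd3e, Cd8a or Ncr1 was analysed here. The part of such cells in the values of the ligands was not tested.

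**Figure D5:**
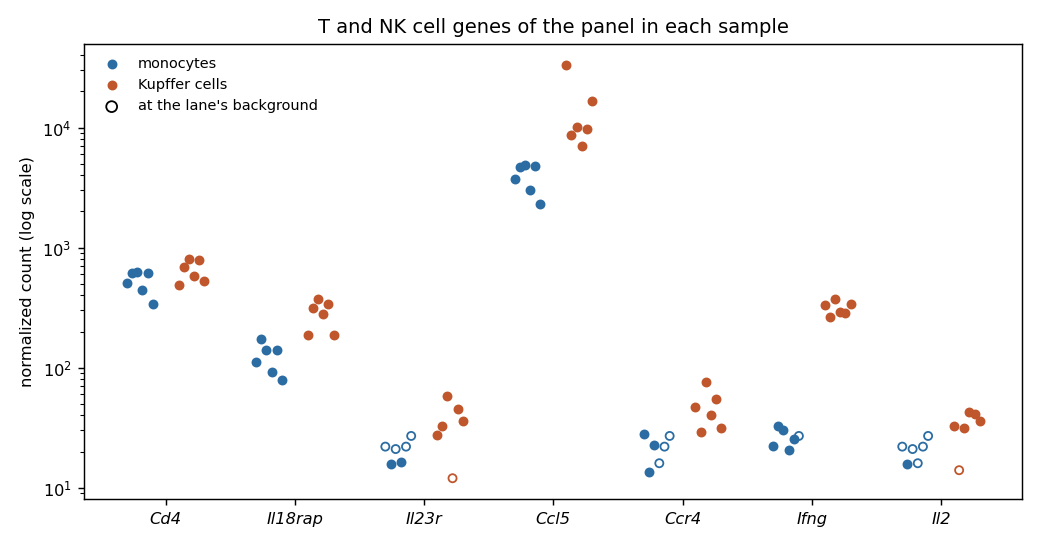
Normalized count on a log axis of the 7 T and NK cell genes of the panel in each monocyte sample (blue) and Kupffer cell sample (orange), with values at the background drawn open. Ifng shows the widest gap, and Cd4 overlaps.

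All 10 hepatocyte genes on the panel rose. By the methods of the study, a slow spin had pelleted parenchymal cells before the enrichment. In monocytes they were at the background in 4 to 6 of 6 samples, so that their sum of 63.1 to 270.0 is mostly the listed background, and in Kupffer cells they summed to 4497 to 15348 normalized counts. Both eosinophil genes on the panel moved: Alox15 fell by 5.00 and Ccr3 rose by 2.48, and they summed to 5400 to 8579 normalized counts in monocytes, against 172 to 499 in Kupffer cells. Flt1, the endothelial gene on the panel, rose by 2.09, with 5 of 6 monocyte samples at the background. Of 3 neutrophil genes 0 rose and 1, Cxcr1, was called lower. Cxcr1 was at the background in 5 of 6 monocyte and 6 of 6 Kupffer cell samples. Its sign turned with the higher background (0.096, adjusted p = 0.752 from limma). The part of these cell types in the values of the ligands was not tested either. Of 9 monocyte and macrophage genes on the panel, 6 fell and 2, Cd163 and Mrc1 (CD206), rose. These encode the haemoglobin scavenger receptor and the mannose receptor. The call of Mrc1 was lost in 11 of 20 alternatives. Among those called lower, C1qa (log2 fold change -2.17), C1qb (-1.82), Itgb2 (-1.73), Tyrobp (-0.996) and Ly96 (-0.85) fell without overlap of the groups. Their values were above the background in every sample. Trem2, also called lower, was at the background in 4 of 6 monocyte and all 6 Kupffer cell samples. With the higher background the change of Trem2 was -0.19 (adjusted p = 0.513 from limma).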

How the data were processed

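Reporter molecules of the nCounter Mouse Inflammation V2 panel were counted in 12 samples. The authors normalized them in nSolver with the positive controls and housekeeping genes with a background at the top negative control per lane, so that the deposited values are a signal, the normalized count. Each value over this background is a multiple (tolerance 0.02) of its lane factor, which gave the counted molecules. Genes under it are listed at the control count, without the factor. Cell types were compared by limma 3.58.1 (R 4.3.3) after taking log2(value + 1), Benjamini-Hochberg adjusted over 248 genes, at 0.05. Ratios were compared by exact permutation tests. Other steps used Python 3.11.15 with scipy 1.17.1 and pandas 2.3.3. The 6 genes and the lists were chosen with earlier results of these data known. The fit was checked on simulated data. Alternatives concerned the pseudocount (10), a filter (above the background in 6 samples, 196 genes), scaling, background, block, test and leaving out samples. The 3 genes nearest to each of the 6 by Pearson r were to be named, and 2 of them are not reported here.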

Additional observations from a re-analysis of the deposited data

Results flagged for a closer look

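Of 38 combinations of gene and cell type, 2 had 1 sample far from the other 5 by the gap to its nearest neighbour as a share of the whole range, a flag that chance gives in about 1 of 20. Tnfsf14 was highest in monocyte sample 2, at 118 normalized counts, a gap of 0.696 of the range. It still lay below all Kupffer cell samples. Relb, a subunit of NF-kB, was lowest in Kupffer cell sample 4, at 378 normalized counts, with 0.664.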

How the results depend on the processing

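Cd40lg and Tnfsf14 kept direction and call under all 20 alternatives (log2 fold changes 0.63 to 1.08 and 1.30 to 1.87). Rescaling to equal medians moved the median of all genes by -0.26 and gave -0.20 for Cd40, 0.39 for Lta (adjusted p = 0.122, limma) and 108 genes called lower (of all called, 38.6% were higher, against 62.1%). Relative to the median gene, Cd40lg was at 0.92 before and 0.91 after, a distance that such rescaling leaves nearly fixed for any gene. Quantile normalization gave -0.35 for Cd40, 0.30 for Fasl, -0.35 for Lta and 0.51 for Ltb (adjusted p = 0.0041), with 47.7% of called genes higher, so the direction of Lta and the call of Fasl depend on it; the cause was not tested. Housekeeping without Gapdh moved the median by 0.10, the higher background by 0.15 and the filter by 0.22. Leaving out each sample, Cd40 ranged from -0.037 without Kupffer cell sample 3 to 0.17 (-0.034 without Kupffer cell sample 2), genes called lower from 46 to 86 (86 without monocyte sample 2), TNF pathway calls from 3 to 5, against 6 in all (3 without monocyte sample 3), and Ltb over Lta from -0.40 to -0.22, where the exact p fell to 0.0476 without monocyte sample 6 and 0.0411 without Kupffer cell sample 1. The number of the 6 genes called was 3 to 5. Little pairing by replicate number was seen: 2 of 6 same-numbered pairs had r over 0.1 (-0.15 to 0.29). Single genes differed in this. The deviations of Cd40 from the cell-type mean had the same sign in both cell types for every replicate number. Those of Tnfsf14 did so only for number 6. Low r values cannot exclude pairing, and pairing for single genes was not tested. With the replicate block Ltb was called (0.33, adjusted p = 0.0383) and no other of the 6 genes changed its call. The precision is limited by 6 samples per cell type and, for Lta, by few molecules.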

Other observations

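Ratios of each ligand to 3 T and NK cell genes, Cd4, Il18rap and Ccl5, were chosen after the values were seen (15 ratios, exact permutation test, adjusted over the 15). Against Cd4, Tnfsf14 rose by 1.46 on the log2 scale and Cd40lg by 0.66 (both adjusted p = 0.00812), and Ltb differed by 0.03 (adjusted p = 0.775). Ltb over Cd4 ranged from 3.74 to 4.50 in monocytes, against 3.59 to 4.86 in Kupffer cells. Against Il18rap, Ltb fell by 0.86 (adjusted p = 0.00812), Tnfsf14 rose by 0.58 (adjusted p = 0.0325), and Cd40lg differed by -0.23 (adjusted p = 0.13). Against Ccl5, Ltb fell by 1.36, Lta by 1.05 and Fasl by 0.86, while Tnfsf14 differed by 0.07 (adjusted p = 0.877).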
